A study of Homo sapiens with 32 samples.

Results

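The plasminogen activator system was followed in TGFβ1-treated mammary epithelial cells through 5 genes, namely the activators PLAU and PLAT, the urokinase receptor gene PLAUR, and the inhibitor genes SERPINE2 and SERPINB2. The members were the genes whose Ensembl identifiers carry these symbols in GENCODE, and all 5 were found among the 17788 genes of the count table. The cells were clones of MCF10A, a non-tumorigenic human mammary epithelial line that undergoes an epithelial-mesenchymal transition (EMT) when treated with TGFβ1. RNA sequencing (RNA-seq) covered 32 libraries in 8 groups of 4. Clones 27 and 2 were JUNB WT. Clones 1 and 65 were labelled JUNB KO. They are called mut here, because the CRISPR/Cas9 deletion leaves a smaller JUNB polypeptide. In the study's methods, single cells were sorted after transfection, expanded into clones and then screened for editing. Every group held 2 clones and 2 replications per clone. The cells received either solvent, which is 0.1% BSA in PBS and labelled 0 hour, or TGFβ1 at 5 ng/ml for 6, 24 or 72 h, and all of them grew in medium with horse serum, EGF, hydrocortisone, cholera toxin and insulin. A clone with its replication number, such as 27-2, is called a series. With 2 clones per genotype, differences between clones and an effect of the deletion cannot be fully told apart, and p-values measure the spread between these libraries.

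Plasminogen is an inactive precursor that urokinase (encoded by PLAU) and tissue plasminogen activator (PLAT) cut into plasmin, a protease that degrades fibrin and extracellular matrix and activates other proteases. The urokinase receptor (PLAUR) is a membrane-anchored protein that holds urokinase at the cell surface, so that plasmin is formed next to the cell. Protease nexin-1 (SERPINE2) and plasminogen activator inhibitor-2 (SERPINB2) are serpins, which trap these proteases in irreversible complexes, and PLAU is a known transcriptional target of activator protein 1 (AP-1), the transcription factor family to which JUNB belongs.

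PLAU, PLAUR and SERPINE2 rose at 24 and 72 h of TGFβ1 in both genotypes. At 72 h the rise was 2.88-fold to 6.99-fold in WT and 1.79-fold to 7.16-fold in mut cells. The change with TGFβ1 differed between genotypes at an adjusted p under 0.05 in limma only for PLAU at 24 h. PLAU, PLAUR and SERPINE2 stood lower in the mut clones at every TGFβ1 time. PLAUR and SERPINE2 were also lower in mut solvent, at 0.56 and 0.46 times the WT level, although the groups overlapped. PLAT went the opposite way between genotypes, at 2.44 to 2.56 times the WT level in mut clones over solvent and the 3 TGFβ1 times. SERPINB2 had the lowest level per kilobase of exon in every group but WT solvent, and it varied several-fold among WT libraries.

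The letters around candidate AP-1 sites are shown for the members whose upstream sequence holds the AP-1 consensus TGANTCA, since the clones differ in an AP-1 subunit. This motif is its own reverse complement, so a match counts on both strands. The 2500 bases before the RefSeq gene starts (GRCh38.p14) were searched for PLAU, PLAUR, SERPINE2 and SERPINB2. The sequences below give each match in capitals with 10 bases on either side, 5′ to 3′ on the strand of the gene.
PLAU, 1890 bases upstream, chr10:73909232-73909258, plus strand: gggagcaacaTGAATCAtgacggtccc
PLAU, 1698 bases upstream, chr10:73909424-73909450, plus strand: atagcatcgcTGACTCAgtctgtcccc
PLAUR, 186 bases upstream, chr19:43670339-43670365, minus strand: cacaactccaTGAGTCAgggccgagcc
SERPINB2, 1590 bases upstream, chr18:63886105-63886131, plus strand: ttatggggtgTGAATCAaacctcacag
SERPINB2, 1572 bases upstream, chr18:63886123-63886149, plus strand: acctcacaggTGAGTCAgtggggagaa
SERPINB2, 102 bases upstream, chr18:63887593-63887619, plus strand: agtaaaatgtTGAATCActcaaaggac

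The GENCODE models of these 3 genes reach further upstream than their RefSeq starts. The first PLAU match and the PLAUR match lie in an exon of the GENCODE model, and the second PLAU match and the 3 SERPINB2 matches lie in an intron. SERPINE2 had 0 matches in its 2500 bases. Over 35116 genes, 50% held at least 1 match within 2500 bases and 6.57% within 250 bases, so a match within the longer window is common. A match is a description of letters only, and binding was not measured here.

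Library totals lay between 39702412 and 54651906 counts, and 3 counts correspond to at most 0.0756 CPM (counts per 1000000 counts of the library). Levels of JUNB itself ranged from 69.2 to 172 CPM in mut solvent and from 89.7 to 117 CPM in WT solvent, and the log2 difference of 0.10 ± 0.34 (SE) was not called (adjusted p = 0.885). A gene count does not test the deletion, because reads from the remaining part of JUNB are still counted. The 5 basal mammary markers were detected in all libraries, with a median of 5834 CPM for KRT5 and 833 CPM for KRT14. Of markers for other cell types, PTPRC, LYZ and VWF had a median of 0 CPM, while CD68 had a median of 10.3 CPM and made up nearly all of the leukocyte list. The summed leukocyte list ranged from 8.93 to 24.5 CPM in WT and from 5.69 to 11.4 CPM in mut libraries, and the summed fibroblast list (3 of 4 genes in the table) held at most 24.5 CPM in solvent and between 33.6 and 91.1 CPM at 24 h. These sums moved with the genotype and with TGFβ1, and their part in the results was not tested. The solvent library of series 1-2 stood apart from the other mut solvent libraries in PLAU and SERPINE2. Series 27-2 stood apart from the other WT series. Several results that rest on these libraries are also given without them, or with their range over the alternative settings.

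In WT cells 3 members, PLAU, PLAUR and SERPINE2, were called higher with TGFβ1 at each time, where a call means an adjusted p under 0.05 in limma-voom across 14865 genes. These 3 of 5 at 6, 24 and 72 h stand beside 5.13%, 14.1% and 13.9% of all tested genes called higher. In mut cells 1 of 5 was called higher at 6 h and 3 of 5 at 24 and 72 h, beside 2.06%, 6.75% and 7.81% of all genes. From 6 to 24 h, 3 of 5 rose further in WT and 2 of 5 in mut cells, beside 7.16% and 1.3% of genes. Between 24 and 72 h 0 of 5 were called by the main limma fit in either genotype, beside 7.83% of genes in WT and 1.31% in mut cells called in either direction. At an unadjusted p under 0.05 this last comparison held 0 members in WT and 1 in mut cells, and edgeR and DESeq2 called 0.

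The mut clones were compared with the WT clones within each treatment state. In solvent 1 member was higher and 2 were lower in mut cells, beside 6.38% and 6.32% of genes. At 6 h 1 was higher and 3 were lower, beside 11.3% and 10% of genes, and at 24 h again 1 and 3, beside 24.7% and 12.2%. At 72 h 1 was higher and 4 were lower, beside 26% and 13.2% of genes. The interaction, which is the mut change minus the WT change and shares the solvent libraries over the 3 times, called 0 members at 6 h, 1 lower at 24 h and 0 at 72 h. All genes were called at 0.074% (either direction), 1.93% (lower) and 12.3% (either direction) in these 3 tests. At an unadjusted p under 0.05 the interaction held 2 members at 6 h and 1 at 72 h, where edgeR called 0 at both times and DESeq2 called 0 and 1. The shares over all genes depend on the scaling. Against solvent, 26.5% to 32.4% of the calls were higher with library totals and 48% to 57.6% with TMM composition factors. From 6 to 24 h this share was 25.4% and 51.5% in WT and 41.6% and 59.5% in mut cells. Between genotypes it was 66.9% and 48.3% at 24 h and 66.3% and 51.1% at 72 h, and in the interaction 80% and 51.5% at 24 h and 76.3% and 52.2% at 72 h.

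**Figure D1:**
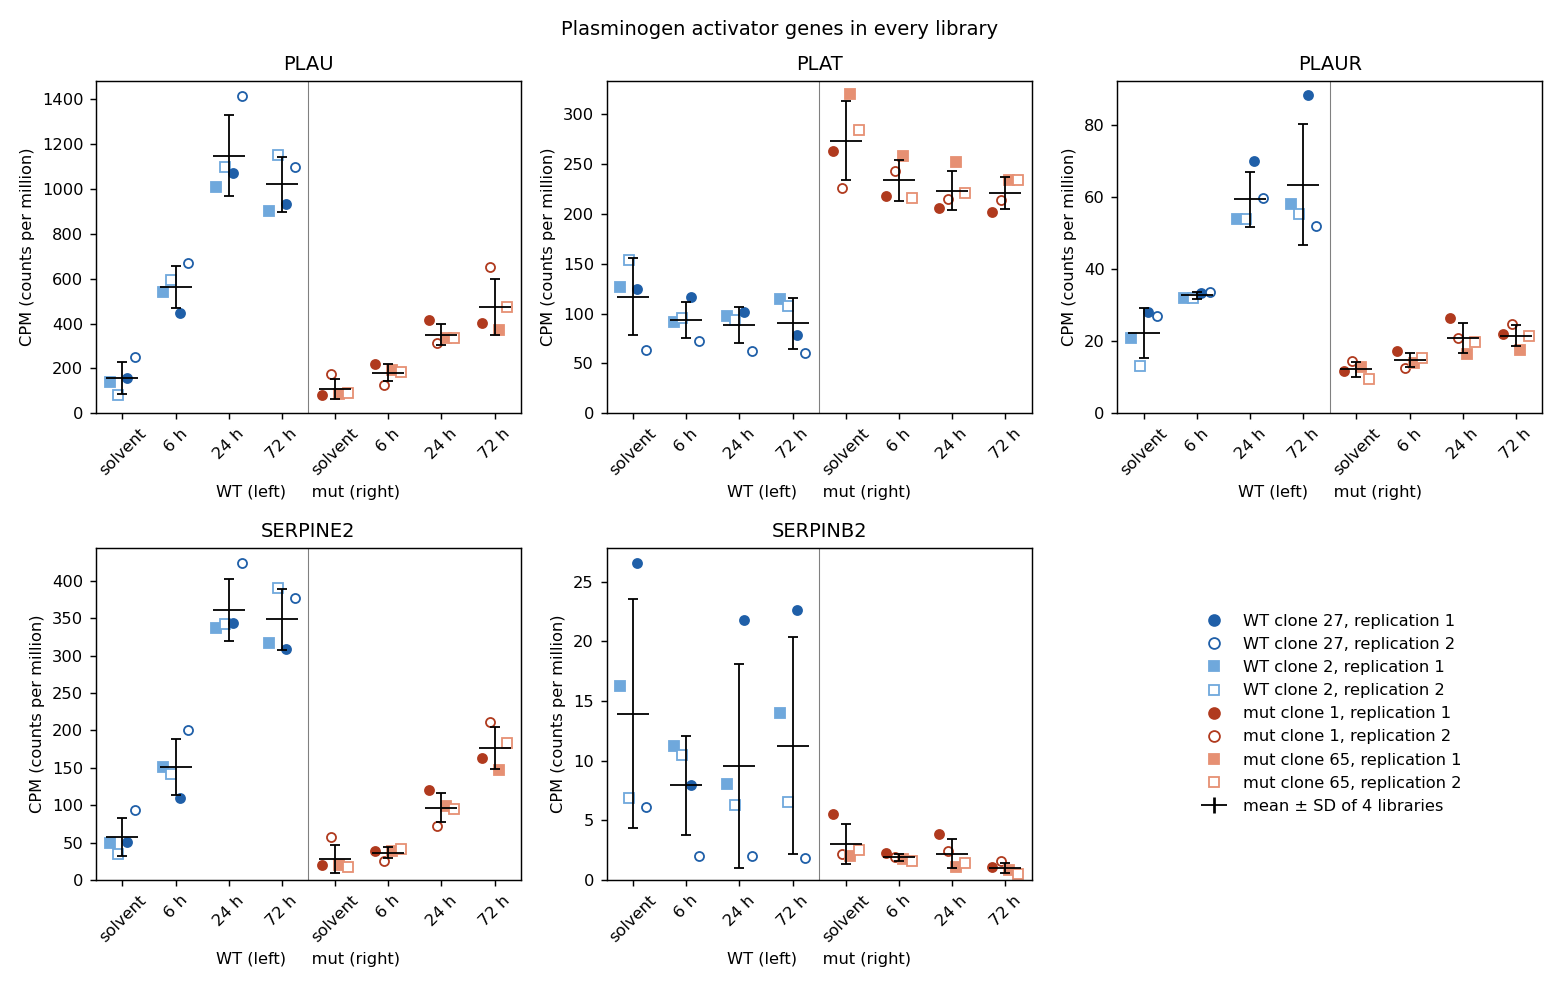
CPM of each member in each of the 32 libraries, by genotype and treatment (horizontal axis), with the mean and SD of 4 libraries per group. PLAU in WT reaches 1008 to 1414 CPM at 24 h against 315 to 417 CPM in mut, while every mut library is above every WT library for PLAT.

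PLAU, the urokinase gene (chr10:73909177-73917496, plus strand), had the highest mean level per kilobase of exon of the 5 members in every group, although in mut solvent its mean of 36.8 CPM per kilobase lay above that of PLAT (35.2) only through the library of series 1-2. In CPM without a length, mean PLAT was above mean PLAU in mut solvent (273 against 108) and in mut cells at 6 h (234 against 181). In WT solvent, series 2-1, 27-1, 2-2 and 27-2 held 139, 155, 81.7 and 252 CPM. At 6 h these series held 543, 446, 594 and 669.8 CPM, at 24 h 1008, 1072, 1099 and 1414 CPM, and at 72 h 903, 934, 1152 and 1097 CPM. Every TGFβ1-treated WT library was thus above every WT solvent library. PLAU rose by 1.94 ± 0.24 on the log2 scale (SE, n = 4) after 6 h, by 2.97 ± 0.25 after 24 h and by 2.81 ± 0.24 after 72 h, and the adjusted p were 2.5e-06, 1.5e-10 and 4.29e-10 in limma. The fold at 24 h was 7.83, and the step from 6 to 24 h was 2.04-fold (adjusted p = 0.00194). Between 24 and 72 h the log2 difference was -0.16 with a 95% interval of -0.67 to 0.34.

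In the mut clones, series 1-1, 65-1, 1-2 and 65-2 held 83.2, 85.4, 177 and 88.1 CPM of PLAU in solvent. At 6 h they held 219, 192, 128 and 185 CPM, at 24 h 417, 336, 315 and 335 CPM, and at 72 h 404, 373, 652 and 474 CPM. The solvent library of series 1-2 overlapped the 6 h group, and in that series the 6 h level was below the solvent level. PLAU rose in mut cells by 0.80 ± 0.24 at 6 h (adjusted p = 0.0443), 1.77 ± 0.24 at 24 h (adjusted p = 6.59e-06) and 2.18 ± 0.24 at 72 h (adjusted p = 2.01e-07). The 6 h call was made in 9 of 21 settings. Without the 1-2 solvent library the change was 1.06 (adjusted p = 0.0135), and without all of series 1-2 it was 1.21 (adjusted p = 0.00187). Leaving out any 1 of the other 3 solvent libraries, or the 6 h library of series 1-1, 65-1 or 65-2, ended the call, with changes of 0.70 to 0.78 and adjusted p of 0.0906 to 0.148. The further step from 6 to 24 h of 0.97 (adjusted p = 0.0241) was lost without the 6 h library of series 1-2 (0.81, adjusted p = 0.114) or the 24 h library of series 1-1 (0.89, adjusted p = 0.126), 65-1 (0.99, adjusted p = 0.0588) or 65-2 (0.99, adjusted p = 0.0644).

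Mut cells had 0.705 times the WT level of PLAU in solvent, which was not called (log2 difference -0.50 ± 0.25, 95% interval -1.01 to -0.00227, adjusted p = 0.189). This difference was called without series 1-2 (-0.76, adjusted p = 0.0239) or the WT solvent library of series 2-2 (-0.78, adjusted p = 0.0251), and was -0.24 without that of series 27-2 (adjusted p = 0.592). With TGFβ1 no mut library reached the lowest WT library of the same time, and mut cells held 0.32 times the WT level at 6 h (adjusted p = 1.02e-05), 0.31 times at 24 h (adjusted p = 4.01e-06) and 0.46 times at 72 h (adjusted p = 0.000509). The change with TGFβ1 was smaller in mut than in WT cells at 24 h by a log2 interaction of -1.20 ± 0.35 (adjusted p = 0.0269), and the changes within single series were 2.49 to 3.75 in WT and 0.83 to 2.32 in mut cells. At 6 h the interaction was -1.14 (adjusted p = 0.521) and at 72 h -0.62 (adjusted p = 0.253). The 6 h value was -0.72 without series 1-2. The 72 h value was -0.35 without the solvent library of series 2-2 and -0.36 without that of series 1-2, and it was called without both series 27-2 and 1-2 (-0.75, adjusted p = 0.0377). The 24 h call was made in 21 of 29 settings. It was lost without the solvent library of series 2-2 (-0.93, adjusted p = 0.0652) or 1-2 (-0.94, adjusted p = 0.0758), and without the 24 h library of series 27-2 (-1.10, adjusted p = 0.0564), 65-1 (-1.18, adjusted p = 0.0508) or 1-2 (-1.15, adjusted p = 0.0539). It was also lost without series 1-2 altogether (-0.89, adjusted p = 0.0892), with the replications of each clone summed (adjusted p = 0.0651) and in a fit of the 4 groups alone (adjusted p = 0.0535).

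Ordered by mean CPM, PLAU ran from mut solvent (108 ± 45.7, SD) through WT solvent (157 ± 70.5), mut 6 h (181 ± 38.4), mut 24 h (351 ± 45.1), mut 72 h (476 ± 125), WT 6 h (563 ± 94.0) and WT 72 h (1021 ± 122) to WT 24 h (1149 ± 181). The gaps between mut 6 h and mut 24 h and between WT 6 h and WT 72 h held no overlapping libraries, and all other neighbours in this order overlapped. The mut clones at 72 h thus overlapped WT cells at 6 h.

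**Figure D2:**
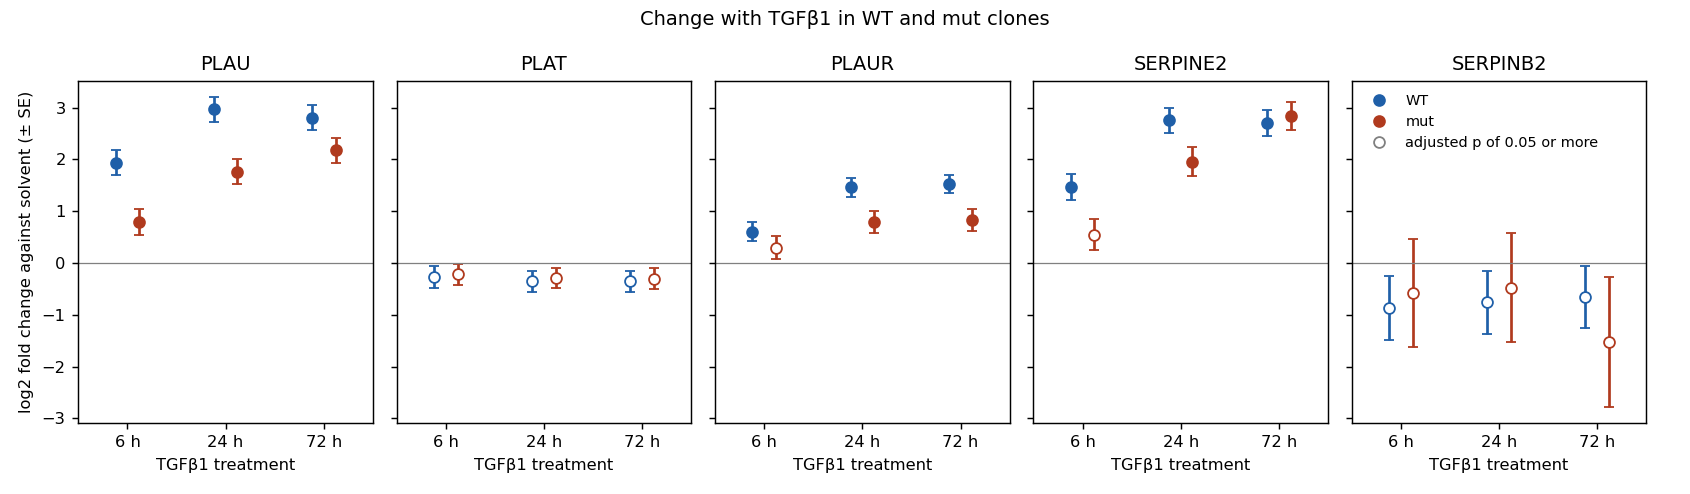
Log2 fold change against solvent (vertical axis, ± SE, limma-voom) of the 5 members after 6, 24 and 72 h of TGFβ1 in WT (blue) and mut (red) clones, with open points for an adjusted p of 0.05 or more. PLAU reaches 2.97 in WT against 1.77 in mut at 24 h, SERPINE2 reaches 2.70 and 2.84 at 72 h, and all PLAT and SERPINB2 points are open.

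PLAT, the gene of tissue plasminogen activator (chr8:42174718-42207709, minus strand), is the other activator. WT solvent libraries of series 2-1, 27-1, 2-2 and 27-2 held 127, 124, 154 and 62.9 CPM, and mut solvent libraries of series 1-1, 65-1, 1-2 and 65-2 held 263, 320.2, 226 and 284 CPM. With TGFβ1, WT libraries lay between 60.3 and 117 CPM and mut libraries between 202 and 258 CPM over the 3 times. The lowest mut library of all thus held more PLAT than the highest WT library. Mut cells exceeded WT cells by a log2 difference of 1.29 ± 0.20 in solvent. With TGFβ1 it was 1.34 ± 0.20 after 6 h, 1.36 ± 0.20 after 24 h and 1.34 ± 0.20 after 72 h, and the adjusted p were 4.52e-05, 1.58e-05, 7.71e-06 and 6.86e-06. This call was made in all 20 settings at each of the 4 states, with log2 differences from 1.02 to 1.47.

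With TGFβ1 PLAT differed from solvent by -0.27, -0.35 and -0.35 on the log2 scale in WT cells and by -0.22, -0.29 and -0.30 in mut cells at 6, 24 and 72 h, and the main limma fit called none of these 6 differences (adjusted p from 0.151 to 0.553). When the series entered the fit as a replicate block, so that each clone and replication was compared with its own solvent library, PLAT was called lower at 24 h (-0.36, adjusted p = 0.00537) and 72 h (-0.35, adjusted p = 0.00623) in WT cells. The blocked fit also called it lower at 24 h (-0.29, adjusted p = 0.0292) and 72 h (-0.30, adjusted p = 0.0225) in mut cells. PLAT was below its own solvent library in all 8 series at both times. Without series 27-2 the WT changes were called at 6 h (-0.42, adjusted p = 0.0291), 24 h (-0.46, adjusted p = 0.00461) and 72 h (-0.44, adjusted p = 0.00646), and without its solvent library alone they were -0.54, -0.62 and -0.62. The median of all genes in WT cells lay at -0.18 at 24 h and -0.19 at 72 h when libraries were scaled by their totals, and at 0.00 and -0.03 with TMM factors, under which PLAT itself differed by -0.18 and -0.19 without a block. In mut cells the medians with library totals were -0.10 and -0.09. Interactions for PLAT were between 0.05 and 0.07 at the 3 times, with 95% intervals inside -0.53 to 0.65, and turned below 0 with TMM factors at 24 h (-0.02) and 72 h (-0.03).

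The order of PLAT group means ran from WT 24 h (88.6 ± 18 CPM, SD) through WT 72 h (90.3 ± 25.5), WT 6 h (93.8 ± 18.3) and WT solvent (117 ± 38.5) to mut 72 h (221 ± 15.8), mut 24 h (223 ± 19.8), mut 6 h (234 ± 20.6) and mut solvent (273 ± 39.4). Only the step from WT solvent to mut 72 h separated neighbours without overlap. In WT cells the low value belonged to series 27-2 in each group (62.9, 72.2, 62.0 and 60.3 CPM).

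**Figure D3:**
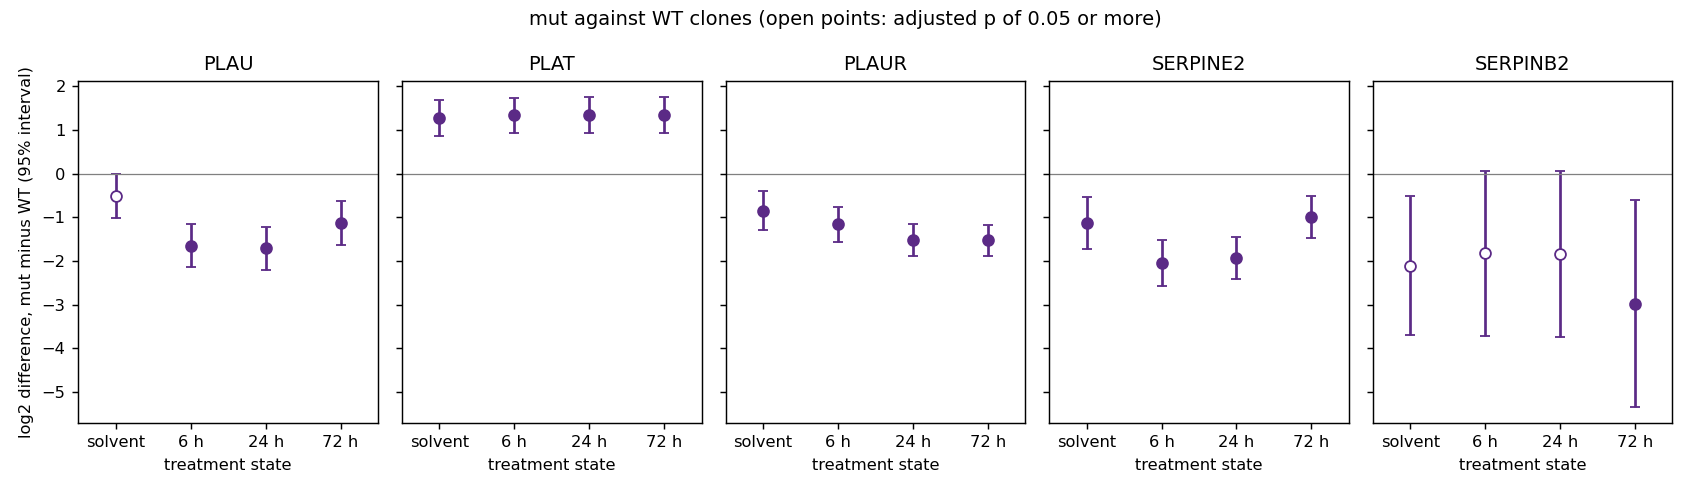
Log2 difference between mut and WT clones (vertical axis, 95% interval, limma-voom) of the 5 members in solvent and after 6, 24 and 72 h of TGFβ1, with open points for an adjusted p of 0.05 or more. PLAT lies at 1.29 to 1.36 throughout, and PLAU moves from -0.50 in solvent to -1.71 at 24 h and -1.13 at 72 h.

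Because both activators act on the same substrate, their transcripts were also set against each other per kilobase of exon, as a description without a test. In WT solvent, PLAU exceeded PLAT 1.40-fold to 10.5-fold with a median of 3.10, and the medians after 6, 24 and 72 h of TGFβ1 were 16.1, 29.4 and 29.8. In mut solvent the ratio ranged from 0.70 to 2.06 with a median of 0.82, while treated mut cells had medians of 2.11, 3.93 and 5.30. In 3 of 4 mut solvent libraries PLAT was thus the more abundant activator transcript per length, while PLAU led in every other library. This order rests on exon lengths of 7770 bases for PLAT and 2949 bases for PLAU, each the union of all annotated exons. In CPM alone, mut solvent libraries held 226 to 320 of PLAT and 83.2 to 177 of PLAU. The WT solvent library of series 2-2 held 154 CPM of PLAT and 81.7 CPM of PLAU. The highest mut ratio, 8.04 in series 1-2 at 72 h, lay below the lowest WT ratio with TGFβ1 (10.1).

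**Figure D4:**
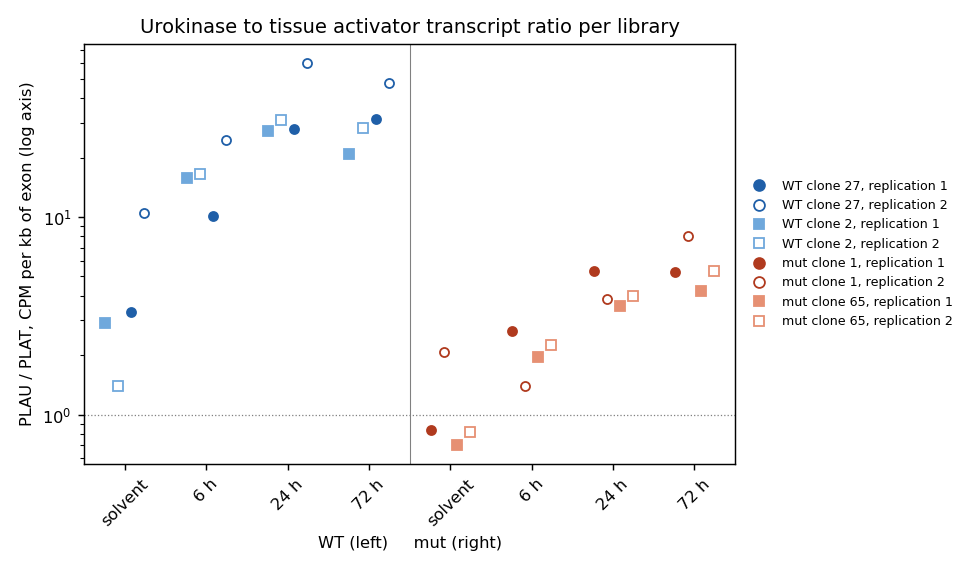
Ratio of PLAU to PLAT in CPM per kilobase of exon for each library (log axis) by genotype and treatment, with a dotted line at equal levels. WT libraries rise from 1.40 to 10.5 in solvent to 20.7 to 47.9 at 72 h, and mut libraries from 0.70 to 2.06 in solvent to 4.20 to 8.04 at 72 h.

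PLAUR (chr19:43646095-43670547, minus strand) encodes the urokinase receptor. Series 2-1, 27-1, 2-2 and 27-2 of WT cells held 20.8, 28.1, 13.1 and 27.0 CPM in solvent. They held 31.9, 33.4, 32 and 33.8 CPM at 6 h, 53.8, 70.0, 53.8 and 59.8 CPM at 24 h, and 58.0, 88.3, 55.4 and 51.9 CPM at 72 h. All WT libraries with TGFβ1 lay above all WT solvent libraries, and the 24 h group lay above the 6 h group. The log2 changes were 0.61 ± 0.18 at 6 h (adjusted p = 0.0221), 1.46 ± 0.18 at 24 h (adjusted p = 7.71e-08) and 1.53 ± 0.18 at 72 h (adjusted p = 4.33e-08), the last a 2.88-fold rise. The 6 h call was lost without the WT solvent library of series 2-2 (0.39, adjusted p = 0.141) or 2-1 (0.59, adjusted p = 0.0532), in a fit of the compared groups alone (adjusted p = 0.0709) and with clone replications summed (0.58, adjusted p = 0.0808).

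Mut cells held less PLAUR throughout. Series 1-1, 65-1, 1-2 and 65-2 held 11.7, 12.9, 14.6 and 9.55 CPM in solvent. After 6 h they held 17.4, 13.9, 12.7 and 15.3 CPM, at 24 h 26.5, 16.6, 20.9 and 19.8 CPM, and at 72 h 22.1, 17.6, 24.7 and 21.5 CPM. The 24 and 72 h groups lay above the solvent group, and the 72 h group lay within the range of untreated WT cells. PLAUR rose by 0.79 ± 0.22 at 24 h (adjusted p = 0.00852) and 0.84 ± 0.21 at 72 h (adjusted p = 0.00427), a 1.79-fold rise at the later time, and its 6 h change of 0.29 was not called (adjusted p = 0.466).

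Compared with WT, mut cells held 0.558 times the PLAUR level in solvent (adjusted p = 0.00859). With TGFβ1 this was 0.45 times at 6 h (adjusted p = 7.18e-05), 0.35 times at 24 h (adjusted p = 1.7e-07) and 0.347 times at 72 h (adjusted p = 7.71e-08). The groups overlapped in solvent, through the WT library of series 2-2, and not at the TGFβ1 times. The solvent call was lost in a fit of the 2 solvent groups alone (adjusted p = 0.0508). The interactions of -0.67 ± 0.28 at 24 h (adjusted p = 0.13) and -0.69 ± 0.28 at 72 h (adjusted p = 0.101) were not called. Under the series block these interactions were -0.65 (adjusted p = 0.0303) and -0.68 (adjusted p = 0.0187) and were called, and the 72 h one was also called by DESeq2 (-0.78, adjusted p = 0.032) and without series 27-2 (-0.88, adjusted p = 0.0461). The block also called the step of 0.49 from 6 to 24 h in mut cells (adjusted p = 0.0413, without the block 0.192). Group means ran from mut solvent (12.2 ± 2.13 CPM, SD) through mut 6 h (14.8 ± 2.03), mut 24 h (20.9 ± 4.11), mut 72 h (21.5 ± 2.93), WT solvent (22.3 ± 6.88), WT 6 h (32.8 ± 0.97) and WT 24 h (59.4 ± 7.62) to WT 72 h (63.4 ± 16.8), and only the 2 steps into WT 6 h and WT 24 h separated neighbours without overlap.

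SERPINE2 (chr2:223975045-224039318, minus strand) encodes protease nexin-1, an inhibitor of urokinase, tissue plasminogen activator and thrombin. WT solvent libraries of series 2-1, 27-1, 2-2 and 27-2 held 48.9, 50.3, 35.2 and 93.8 CPM. They held 151, 109.6, 142 and 200.3 CPM at 6 h, 336, 344, 342 and 424 CPM at 24 h, and 316, 309.5, 391 and 377 CPM at 72 h. Each step up to 24 h separated the WT groups without overlap, with series 27-2 highest in the first 3 groups. The log2 changes were 1.47 ± 0.25, 2.75 ± 0.25 and 2.70 ± 0.25 at 6, 24 and 72 h (adjusted p of 0.000135, 5.75e-10 and 9.83e-10), the 24 h value a 6.75-fold rise.

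Mut solvent libraries of series 1-1, 65-1, 1-2 and 65-2 held 19.4, 19.3, 56.7 and 17.4 CPM of SERPINE2. They held 38.9, 38.9, 25.2 and 41.3 CPM at 6 h, 119.8, 98.4, 72.5 and 94.5 CPM at 24 h, and 162, 148, 211 and 184 CPM at 72 h. Series 1-2 was the highest mut series in solvent and at 72 h and the lowest at 6 and 24 h. SERPINE2 changed by 0.55 ± 0.29 at 6 h, which was not called (adjusted p = 0.267), and rose by 1.96 ± 0.28 at 24 h (adjusted p = 9.54e-06) and 2.84 ± 0.27 at 72 h (adjusted p = 1.71e-08), a 7.16-fold rise. Without series 1-2 the 6 h change was 1.09 and was called (adjusted p = 0.0129). The 24 h change ranged from 1.79 to 2.48 over 21 settings and was called in all of them. From 24 to 72 h the mut groups did not overlap and the log2 difference was 0.88 ± 0.24 (adjusted p = 0.0572), which the series block called at 0.89 (adjusted p = 0.00932). This step was called in 5 of 21 settings, and it was 0.66 without both series 27-2 and 1-2 (adjusted p = 0.0193). The same step in WT cells was -0.05 with a 95% interval of -0.53 to 0.42.

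Mut cells held 0.46 times the WT level of SERPINE2 in solvent (adjusted p = 0.00804). With TGFβ1 they held 0.24 times at 6 h (adjusted p = 1.17e-06), 0.26 times at 24 h (adjusted p = 4.24e-07) and 0.50 times at 72 h (adjusted p = 0.00119). The groups overlapped in solvent, through the mut library of series 1-2, and not at the TGFβ1 times. In a fit of the solvent groups alone the solvent difference was not called (adjusted p = 0.0865). Over 20 settings this difference ranged from -1.51 to -0.87 on the log2 scale and was called in 19. No SERPINE2 interaction was called by limma, with values of -0.92, -0.80 and 0.14 at 6, 24 and 72 h (adjusted p of 0.947, 0.185 and 0.855). Without the mut solvent library of series 1-2 these values were -0.53, -0.41 and 0.53, and without all of series 1-2 they were -0.38, -0.28 and 0.43, again not called. Ordered by mean, SERPINE2 ran from mut solvent (28.2 ± 19.1 CPM, SD) through mut 6 h (36.1 ± 7.35), WT solvent (57.0 ± 25.4), mut 24 h (96.3 ± 19.4), WT 6 h (151 ± 37.5), mut 72 h (176 ± 27.7) and WT 72 h (348 ± 41.4) to WT 24 h (361 ± 41.6). Of these neighbours only mut 72 h and WT 72 h did not overlap.

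SERPINB2 (chr18:63871692-63903888, plus strand) encodes plasminogen activator inhibitor-2, a urokinase inhibitor kept largely inside the cell. WT solvent libraries of series 2-1, 27-1, 2-2 and 27-2 held 16.3, 26.5, 6.88 and 6.07 CPM. They held 11.2, 7.95, 10.5 and 2.03 CPM at 6 h, 8.06, 21.8, 6.28 and 2.00 CPM at 24 h, and 14, 22.6, 6.56 and 1.82 CPM at 72 h. Series 27-2 was the lowest WT series in all 4 groups, and both replication 2 series lay below both replication 1 series except at 6 h. In WT cells the log2 changes of -0.88, -0.76 and -0.66 at 6, 24 and 72 h had standard errors of 0.59 to 0.62 and were not called (adjusted p of 0.373, 0.313 and 0.369). With the series block the 6 h change was -0.86 and was called (adjusted p = 0.0144).

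Mut libraries of series 1-1, 65-1, 1-2 and 65-2 held 5.50, 1.98, 2.16 and 2.49 CPM of SERPINB2 in solvent. They held 2.29, 1.72, 1.93 and 1.60 CPM at 6 h, 3.81, 1.11, 2.40 and 1.45 CPM at 24 h, and 1.06, 0.85, 1.54 and 0.54 CPM at 72 h. All mut solvent libraries lay above all mut libraries at 72 h, yet the log2 change of -1.52 ± 1.26 was not called (adjusted p = 0.413). The series block called this change at -1.61 (adjusted p = 0.0279), and so did a fit of the 2 groups alone (adjusted p = 0.0212).

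The log2 difference in SERPINB2 between mut and WT cells was -2.11 ± 0.78 in solvent (adjusted p = 0.0724), -1.82 ± 0.93 at 6 h (adjusted p = 0.168), -1.83 ± 0.93 at 24 h (adjusted p = 0.125) and -2.98 ± 1.16 at 72 h (adjusted p = 0.0413). Only the 72 h difference was called. With a single library left out it was called without the WT library of series 27-2 (-3.73, adjusted p = 0.00516) and lost without any of the other 7 (-3.24 to -2.45, highest adjusted p = 0.0887). The edgeR quasi-likelihood test with TMM factors called the difference in solvent (-2.19, adjusted p = 0.0232), at 6 h (-2.08, adjusted p = 0.023) and at 24 h (-2.20, adjusted p = 0.0101), and so did DESeq2, summed replications, a block by replication number and the fits without series 27-2. In solvent and at 72 h the 2 genotypes did not overlap. Group means ran from mut 72 h (1.00 ± 0.42 CPM, SD), mut 6 h (1.88 ± 0.30), mut 24 h (2.19 ± 1.21) and mut solvent (3.03 ± 1.66) to WT 6 h (7.92 ± 4.17), WT 24 h (9.54 ± 8.57), WT 72 h (11.2 ± 9.08) and WT solvent (13.9 ± 9.59), and only mut 72 h and mut 6 h were neighbours without overlap. These are bulk libraries, in which fewer expressing cells and less RNA per cell cannot be told apart.

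Across the 32 libraries PLAU and SERPINE2 moved closely together, with a Pearson correlation of their log2 CPM of 0.976. PLAUR correlated with them at 0.897 and 0.893. PLAT ran opposite, at -0.665 with PLAU, -0.819 with PLAUR and -0.685 with SERPINE2, and SERPINB2 correlated at 0.144 with PLAU and 0.508 with PLAUR. These values describe 32 libraries that share clones, genotypes and treatments and carry no test. Among genes with a mean of at least 10 CPM, the 3 most like PLAU were SLC46A3 (0.980), CHST11 (0.977) and SERPINE2. Those most like SERPINE2 included KCNJ15 (0.982) and PLAU. For PLAUR they were TMEM132A (0.965), CD59 (0.962), which encodes a membrane-anchored complement inhibitor, and CAP1 (0.956). For PLAT they were IGSF9 (0.950), EPB41L1 (0.943) and CYBRD1 (0.938), and for SERPINB2 C1orf116 (0.909), C1orf74 (0.878) and MCC (0.854).

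The wider system was taken from a list of 24 pathway partners, of which 23 were in the table and 20 passed the filter on low counts. PLG, the gene of plasminogen itself, had a mean of 0.01 CPM, below the value of 3 counts in any library, so that the substrate transcript was not detectable at this depth. Of the 20 tested partners, 3, 6 and 5 rose in WT cells at 6, 24 and 72 h, beside 5.13%, 14.1% and 13.9% of all tested genes, and 0, 5 and 4 fell, beside 11.9%, 38% and 38.4%. In mut cells 1, 5 and 4 rose, beside 2.06%, 6.75% and 7.81% of genes, and 0, 2 and 3 fell, beside 4.94%, 17.1% and 16.3%. The median partner had a log2 change of 0.05 at 72 h in WT cells, beside -0.19 over all tested genes, and of -0.14 in mut cells, beside -0.09.

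SERPINA5, the gene of the protein C inhibitor, which also inhibits urokinase, rose in WT cells at 24 h from a mean of 3.15 to 6.14 CPM (0.92 ± 0.30, adjusted p = 0.0101), although the groups overlapped. The mut means were 7.98 CPM before and 6.70 CPM after 24 h of TGFβ1. Its interaction at 24 h was -1.18 (adjusted p = 0.0423). Calls of listed genes such as this one were not checked in the other settings used for the members. Mut cells held more SERPINA5 than WT cells in solvent (1.39 ± 0.28, adjusted p = 0.00118).

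Surface proteins that bind plasminogen or help activate it include S100A10, which pairs with annexin A2. S100A10 rose by 0.73 ± 0.06 in WT cells at 24 h (means of 758 and 1257 CPM, adjusted p = 4.99e-10) and by 0.40 ± 0.07 in mut cells (991 and 1309.9 CPM, adjusted p = 6.29e-05), with an interaction of -0.33 (adjusted p = 0.0226). KRT8, a keratin that can bind plasminogen at the surface, rose in WT cells at 72 h from 109 to 156 CPM (0.53 ± 0.16, adjusted p = 0.00802). The KRT8 means of mut cells were 178 CPM without and 149 CPM with TGFβ1 at that time, giving an interaction of -0.77 (adjusted p = 0.026). KRT8 overlaps KRT18 in the annotation, so reads in the shared stretch could have gone to either gene.

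MRC2, an endocytic collagen receptor that associates with the urokinase receptor, rose in WT cells from 111 to 257 CPM at 24 h (1.23 ± 0.18, adjusted p = 1.85e-06) and in mut cells from 208 to 449 CPM (1.11 ± 0.18, adjusted p = 5.23e-05). Mut cells held 1.91 times the WT level in solvent (adjusted p = 0.000678), and MRC2, like PLAT, was called higher in mut cells in all 4 states. CTSB, the gene of cathepsin B, which can cut pro-urokinase into its active form, rose in WT cells from 558 to 1534 CPM at 72 h (1.49 ± 0.13, adjusted p = 5.81e-10). In mut cells it rose from 466 to 882 CPM (0.92 ± 0.13, adjusted p = 5.83e-06), with an interaction of -0.57 (adjusted p = 0.0435).

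**Figure D5:**
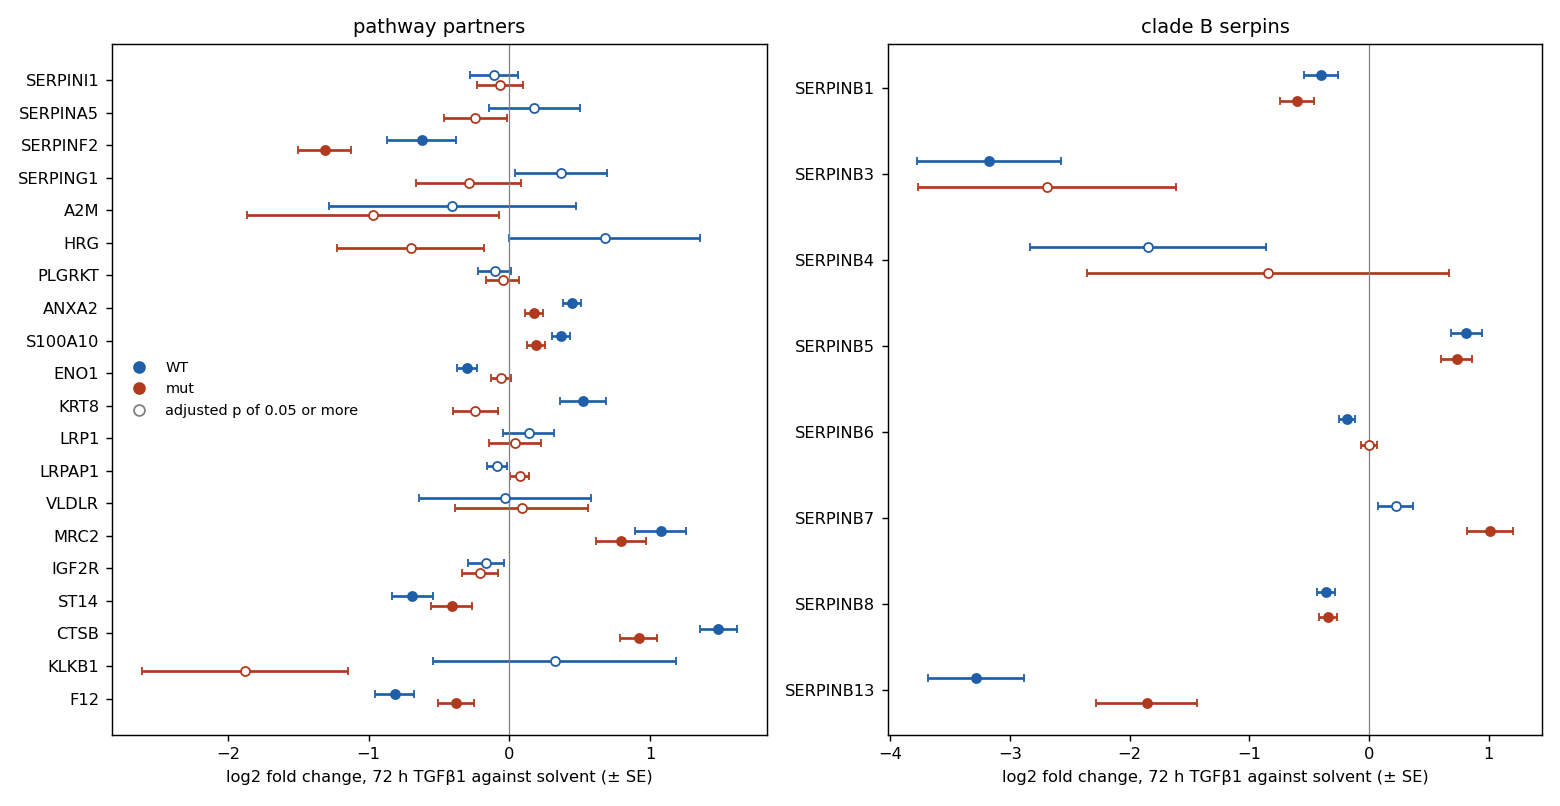
Log2 fold change at 72 h of TGFβ1 against solvent (horizontal axis, ± SE, limma-voom) for the 20 tested pathway partners and the 8 tested clade B serpins in WT (blue) and mut (red) clones, with open points for an adjusted p of 0.05 or more. CTSB at 1.49 and 0.92 and MRC2 at 1.08 and 0.80 lie farthest to the right among the partners in WT and mut clones, and the clade B serpins lie on both sides of 0.

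Between genotypes, 5, 6, 5 and 6 of the 20 partners were higher in mut cells without TGFβ1 and after 6, 24 and 72 h of it, beside 6.38%, 11.3%, 24.7% and 26% of all genes, so that the counts at 24 and 72 h lay near the background. In these states 0, 0, 2 and 2 partners were lower, beside 6.32%, 10%, 12.2% and 13.2% of genes. The interaction called 0 partners at 6 h, 2 lower at 24 h (SERPINA5 and S100A10), beside 1.93% of genes, and 2 lower at 72 h (KRT8 and CTSB), beside 2.92%.

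SERPINB2 belongs to the clade B serpins, which are largely intracellular and many of which lie together on chromosome 18. From that clade 12 other members were listed. Of these 11 were in the table and 8 were tested. In WT cells 1 rose and 5 fell at 72 h, beside 13.9% and 38.4% of all genes, and in mut cells 2 rose and 3 fell, beside 7.81% and 16.3%. SERPINB5 (maspin), the most abundant, rose in WT cells from a mean of 741 CPM to 1849 CPM at 24 h (1.31 ± 0.13, adjusted p = 3e-09) and in mut cells from 549.9 to 1147 CPM (1.06 ± 0.13, adjusted p = 9.45e-07). In mut cells it was lower than in WT cells in all 4 states, by -0.43, -0.98, -0.68 and -0.51 (largest adjusted p = 0.0238).

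SERPINB3 fell in WT cells from a mean of 3.42 to 0.32 CPM at 24 h (-4.14 ± 0.74, adjusted p = 2.97e-05), while the mut means were 0.40 and 0.34 CPM, giving a fitted interaction of 3.88 (adjusted p = 0.0225). SERPINB3 and SERPINB4 are near-identical copies, so the split of reads between them is uncertain. SERPINB7 rose in mut cells at 72 h from 3.08 to 6.18 CPM (1.01 ± 0.19, adjusted p = 0.000273), had 8.50 and 9.78 CPM in WT cells, and gave an interaction of 0.78 (adjusted p = 0.0309). Against WT, 4 of the 8 were lower in mut solvent, and 4, 3 and 2 of them after 6, 24 and 72 h of TGFβ1. These counts stand beside 6.32%, 10%, 12.2% and 13.2% of all genes. Limma called 0 of the 8 higher in each state, beside 6.38%, 11.3%, 24.7% and 26% of all genes. The median clade B difference in solvent was -0.94, beside -0.01 over all tested genes.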

How the data were processed

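Libraries were grouped by their labels, which give solvent as 0 hour, although the methods describe solvent given for the longest treatment time. The authors trimmed reads with Trimmomatic and mapped and counted them with STAR on GRCh38 in the Ensembl version, and they deposited raw gene-level counts, which are whole numbers. Tool versions, the strand setting and any filter on low counts are not given in the sources used here. The named library kit keeps no strand, so reads of PLAU and the overlapping C10orf55 cannot be told apart. The table held 17788 genes, 17763 of them named by GENCODE release 44 (GRCh38). Libraries of a group differed by more than sampling noise (smallest chi-square per degree of freedom 11.6).

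CPM are counts per 1000000 counts of the library, and levels between genes are compared per kilobase of exon. The exon length of a gene is the union of all its exons in GENCODE, rather than the length of a single transcript. Tests were two-sided limma-voom fits (limma 3.58.1, R 4.3.3) on library-size scaled counts, with the model ~0 + condition over all 32 libraries and the 14865 genes kept by filterByExpr (minimum count 10, minimum total 15, edgeR 4.0.16), as in the study's methods for scaling and model. Every adjusted p of limma and edgeR is Benjamini-Hochberg over all genes tested in that fit for 1 of 17 comparisons, called under 0.05 with no minimum fold. The adjusted p of DESeq2 are those the tool returns with its default filtering of genes, called under the same limit. Fits were tested on simulated counts. Floors and errors cover counting and replicate spread only.

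The replication and clone numbers of the labels pair libraries into series, and same-series deviations from group means correlated at a mean r of 0.30 (48 pairs, lowest 0.03), against 0.02 for other replications of the clone. Alternatives were TMM factors, the edgeR quasi-likelihood test, DESeq2 1.42.0, no filter or a mean count of at least 50, only the compared groups, blocks by series or replication number, summed replications, a minimum absolute log2 fold change of 1, each library left out and, added after seeing the data, series 27-2, 1-2 or both left out. Among the named genes, the alternatives were read for the members only, and calls of the listed genes rest on the main fit. The members and gene lists were chosen with earlier results of these data known. Named genes were the 5 members, JUNB, the listed genes called in an interaction or most abundant per length in their role, and the 3 genes most like each member. Of these genes, 1 partner, which is left out of the list's counts, and 1 gene most like a member are not reported here. Promoter sequences are from RefSeq (GRCh38.p14), which matched 4 of 5 members.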

Additional observations from a re-analysis of the deposited data

Results flagged for a closer look

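In 5 of the 40 group and member combinations examined, 1 of the 4 libraries lay further from the rest than Dixon's 95% critical value, and chance flags about 1 in 20 such groups. The solvent library of mut series 1-2 was high for PLAU, with 177 CPM against 83.2 to 88.1 CPM in the other 3 libraries, and for SERPINE2, with 56.7 CPM against 17.4 to 19.4 CPM. The 6 h library of the same series was low for SERPINE2, with 25.2 CPM against 38.9 to 41.3 CPM. In WT cells at 24 h, series 27-2 was high for SERPINE2, with 424 CPM against 336 to 344 CPM, and low for PLAT, with 62.0 CPM against 93.8 to 101 CPM. What set these libraries apart was not tested.

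The TGFβ1 response of PLAU at 24 h differed between the genotypes by a tested interaction, with a log2 difference of -1.20 (mut minus WT, adjusted p = 0.0269 in limma). The call was made in 21 of 29 settings and was lost without series 1-2 (-0.89, adjusted p = 0.0892), with the replications of each clone summed (adjusted p = 0.0651), in a fit of the 4 groups alone (adjusted p = 0.0535) and without any 1 of 5 single libraries.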

How the results depend on the processing

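Of the 17 counts of called members, 10 kept within 1.5 times their value in every setting. For the 6 h response of mut cells (1 member), the count was 0 with edgeR, DESeq2, no filter on low counts, the compared groups alone, summed replications or a minimum fold change (0.605% to 6.51% of all genes), 2 without series 1-2 or without series 27-2 and 1-2 (7.24% and 9.08% of all genes, in place of 7%), and 0 to 1 with 1 library left out. For mut cells it was 5 in place of 3 at 72 h with the series as a replicate block, which called 33.9% of all genes there in place of 24.1%. This block also raised the share of all genes called from 1.31% to 9.45% between 24 and 72 h in mut cells, from 9.65% to 18.7% in the 24 h interaction and from 12.3% to 23.5% in the 72 h interaction. From 6 to 24 h in mut cells (2 members) it was 1 with summed replications or a minimum fold change (0.396% and 0.397% of all genes, in place of 3.12%) and 1 to 2 with 1 library left out. From 24 to 72 h in mut cells (0 members) it was 1 with the compared groups alone (1.81% of all genes), either replicate block (9.45% by series, 1.79% by replication number), without series 27-2 (3.03%), or without both series (0.989%). Between the genotypes in solvent (3 members) it was 1 with the compared groups alone, beside 10.8% of all genes in place of 12.7%. For the interaction at 24 h (1 member) it was 0 with the compared groups alone, summed replications or without series 1-2 (11.1%, 2.01% and 4.84% of all genes), 2 with the series as a replicate block, and 0 to 1 with 1 library left out. For the interaction at 72 h (0 members) it was 1 (PLAUR) with DESeq2, the series block or without series 27-2, and 1 (PLAU) without both series (11.1%, 23.5%, 13% and 13.2% of all genes). Removing series was chosen after seeing the data. The replicate block by series changed no other call than those given in the report, and could not be fitted between genotypes.

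Some differences that were not called changed sign. PLAT from 6 to 24 h in WT cells was 0.0174 with TMM factors, 0.0203 with edgeR, 0.0168 with DESeq2 and -0.206 to 0.0776 with 1 library left out, and from 24 to 72 h -0.0125 with TMM factors, -0.0269 with summed replications and -0.161 to 0.185. Its interaction was -0.0583 without series 1-2 and -0.105 to 0.32 with 1 library left out at 6 h. At 24 h it was -0.0219 with TMM factors, -0.00149 without series 1-2 and -0.0949 to 0.34. At 72 h it was -0.0335 with TMM factors, -0.0277 with edgeR, -0.0414 with DESeq2, -0.0208 without series 1-2 and -0.13 to 0.322. SERPINE2 had a 72 h interaction of -0.0434 with edgeR, -0.0578 with DESeq2, -0.0817 without series 27-2 and -0.123 to 0.527 with 1 library left out. SERPINB2 had a 6 h interaction of -0.116 without both series and -0.288 to 0.621 with 1 library left out, and a 24 h interaction of -0.00141 with edgeR, -0.031 without series 27-2, -0.233 without both series and -0.335 to 0.924. PLAUR from 24 to 72 h in mut cells was -0.0186 without series 1-2 or without both series, and -0.052 to 0.174. With 1 library left out, the ranges from 24 to 72 h were -0.106 to 0.152 for PLAUR, -0.111 to 0.025 for SERPINE2 and -0.515 to 0.85 for SERPINB2 in WT cells, and -0.0516 to 0.0445 for PLAT in mut cells. SERPINB2 ranged from -0.524 to 0.735 from 6 to 24 h and from -1.18 to 0.0951 at 72 h against solvent in WT cells, and from -0.223 to 0.371 from 6 to 24 h in mut cells. The cause was not tested.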
